A study of Mus musculus with 18 samples.

Results

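The 10 clock output genes described here were followed through the first 72 h of a myocardial infarction: Dbp, Tef, Hlf, Nfil3, Ciart, Bhlhe40, Bhlhe41, Cipc, Slc41a3 and Lonrf1. They are 10 of the 30583 genes in the series' count table, and all 10 passed the filter on low counts that left 16311 genes for testing. The members were picked by name with earlier results of these data in view, in which Slc41a3, Lonrf1 and Cipc stood among the genes called at 10 min. The 10 min values are therefore given as a description, with no test, and so is the step from 10 min to 1 h. The sham libraries of that comparison also enter the later contrasts with sham. The p-values of Slc41a3, Lonrf1 and Cipc against sham are therefore not independent of the choice.

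RNA came from 18 male C57BL/6JR mice aged 12 weeks, 3 in each of 6 groups, all anaesthetised with sodium pentobarbital. The design gives 50 mg/kg for all mice. The doses written for single ligated samples climb in sample order from 50 mg/kg at 10 min to 63 mg/kg at 72 h, and sham samples carry none. Whether the doses given differed is not known. In 5 groups an infarction was made by ligating the left anterior descending coronary artery, and the mice were killed under isoflurane after 10 min or after 1, 6, 24 or 72 h. The sham group had the suture passed without ligation and is labelled 0 h. Sham mice were not sampled at the later times, so time after surgery is not matched between sham and the ligated groups. No hour of day is recorded for surgery or death, and hour of day cannot be told apart from group. The labels call the cell type cardiomyocytes, but the protocol takes myocardial tissue of the infarcted left ventricle and describes no separation of cells.

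The circadian clock is a feedback loop in which CLOCK and BMAL1 (encoded by Arntl) bind E-boxes, short DNA elements, and switch on their own repressors together with a layer of output genes. DBP, TEF and HLF are PAR bZIP transcription factors, a family named for a proline and acidic amino acid-rich region beside the basic leucine zipper, and they activate genes through an element called the D-box. NFIL3 (also E4BP4) binds the same element and represses it, so the balance of DBP and NFIL3 sets D-box activity in many tissues. CIART (also CHRONO), BHLHE40 (DEC1), BHLHE41 (DEC2) and CIPC oppose CLOCK and BMAL1. SLC41A3 belongs to a family of magnesium transporters, and LONRF1 is a RING finger protein with a Lon domain.

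E-boxes are shown first because they are the element through which CLOCK and BMAL1 act on this layer of genes. RefSeq promoter windows of 300 bases, from 250 before to 50 after a transcription start (GRCm38.p6), were held for 8 of the 10 members. Bhlhe40 and Lonrf1 had no entry. The letters CACGTG, which read the same on both strands, were present in windows of 5 members: Tef, Ciart, Bhlhe41, Cipc and Slc41a3. Over all 32851 windows in the table the share with these letters was 7.15%. That share is per window, while the 8 members held 10 windows. The members were picked by name, and the difference was not tested. The D-box letters TTATGTAA or TTACGTAA, searched on both strands, were in 0 members' windows and in 1.06% of all windows. The letters AGGTCA, bound by ROR and REV-ERB receptors, was in the window of Nfil3 alone among the members and in 16.3% of all windows. These are matches of letters in a short window and say nothing about binding. The stretches below lie outside exons of their own gene and outside annotated untranslated regions. Other exons of overlapping or neighbouring genes were not checked. The stretches are written 5′ to 3′ on the gene's strand and carry the E-box in capitals. Ciart held 3 E-boxes within 138 bases, and the other stretches held 1 each.
Ciart, chr3:95882252-95882389, minus strand: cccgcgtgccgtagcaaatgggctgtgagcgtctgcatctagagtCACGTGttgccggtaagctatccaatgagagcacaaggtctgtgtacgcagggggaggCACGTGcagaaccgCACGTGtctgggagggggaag
Tef, second start, chr15:81811231-81811326, plus strand: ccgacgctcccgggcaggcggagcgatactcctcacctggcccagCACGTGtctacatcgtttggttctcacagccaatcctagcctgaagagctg
Bhlhe41, chr6:145865559-145865618, minus strand: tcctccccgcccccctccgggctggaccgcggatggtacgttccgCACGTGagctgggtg
Cipc, chr12:86947281-86947342, plus strand: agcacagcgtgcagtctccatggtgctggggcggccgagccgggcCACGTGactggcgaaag
Slc41a3, chr6:90618996-90619083, plus strand: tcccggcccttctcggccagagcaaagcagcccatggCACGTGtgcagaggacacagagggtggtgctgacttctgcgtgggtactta
The Ciart and Bhlhe41 stretches lie before the gene, and the Tef, Cipc and Slc41a3 stretches lie before their RefSeq start inside an intron of a longer GENCODE transcript.

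Libraries held 18.2 to 25.1 M (mega) counts. Levels are TMM-scaled counts per M counts (CPM), and group values are mean ± SD over 3 mice. Changes are log2 fold changes from an edgeR quasi-likelihood test, with the p-value adjusted by Benjamini-Hochberg over all 16311 genes, and a gene is called when that value is under 0.05. Each p-value sets a difference of group means against the spread between mice within groups, estimated over all 6 groups. Marker levels of several cell types differed between the groups. The summed level of 6 cardiomyocyte markers was 38907 to 42945 CPM in sham, 34893 to 44263 CPM at 6 h, 17031 to 26083 CPM at 24 h and 9699 to 12820 CPM at 72 h, with 0 markers at 0. The summed level of 5 macrophage markers was 245 to 277 CPM in sham and 2967 to 3941 CPM at 72 h. That of 5 fibroblast markers was 554 to 572 CPM in sham and 5328 to 6519 CPM at 72 h. The median log2 change of the 5 fibroblast markers at 72 h was 1.30, less than that of their sum. Neutrophil markers summed to 2.31 to 3.58 CPM in sham, 96.6 to 733 CPM at 6 h and 35.1 to 652 CPM at 24 h, highest in replicate 1 at 6 h and replicate 3 at 24 h. Replicate 1 at 6 h also carried 151 CPM of 3 atrial markers, against at most 3.41 CPM in any other library. In such tissue, fewer cells of a type and less RNA per cell cannot be told apart.

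The PAR bZIP activators fell after ligation. Dbp, Tef and Hlf were lower than sham at 6 h and 24 h and lowest at 72 h, when Dbp stood at 4.74% and Hlf at 4.92% of the sham mean and Tef at 12.0%. The share of all genes called lower was 12.2% at 6 h, 20.2% at 24 h and 32.2% at 72 h. At 1 h after ligation 0 of the 3 were called, nor were other members, beside 0.294% of all genes. Tef kept a larger share of its sham level than Dbp or Hlf at each time from 6 h on.

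Dbp (ENSMUSG00000059824, chromosome 7, 45705088 to 45710203, GRCm38) is among the most strongly rhythmic genes of many tissues. It read 128, 128 and 119 CPM in the sham libraries, 45.6, 80.0 and 80.0 CPM at 10 min, and 40.3, 91.3 and 135 CPM at 1 h. The 3 sham mice lay close together and all 10 min libraries were below them. The 1 h libraries ran from below the 10 min range to above sham. Later levels were 35.3, 46.4 and 36.6 CPM at 6 h, 37.7, 64.8 and 30.0 CPM at 24 h, and 7.26, 3.75 and 6.78 CPM at 72 h. Every library from 6 h on was below every sham library, and the 72 h libraries were below all others. Dbp fell, with log2 changes of -1.67 at 6 h (SE 0.40, edgeR adjusted p = 0.00718), -1.50 at 24 h (SE 0.39, adjusted p = 0.00757) and -4.40 at 72 h (SE 0.45, adjusted p = 1.14e-06), a 21.1-fold difference. With replicate 1 at 6 h and replicate 3 at 24 h both left out, the 24 h change was -1.28 and was no longer called (adjusted p = 0.0547). Dbp overlaps Sphk2 on the opposite strand, and since use of strand in counting is not stated, reads of the pair cannot be told apart where they overlap.

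Hlf (ENSMUSG00000003949, chromosome 11, 90336536 to 90390895) was at 53.1, 51.7 and 51.0 CPM in sham and at 26.3, 33.8 and 34.6 CPM at 10 min. It was back at 47.1, 61.1 and 50.2 CPM at 1 h, a range that overlapped sham. It then read 16.0, 26.3 and 16.8 CPM at 6 h, 21.9, 22.7 and 11.7 CPM at 24 h, and 3.38, 2.25 and 2.04 CPM at 72 h. The 6 h and 24 h libraries overlapped each other and lay below sham and 1 h, and the 72 h libraries lay below them all. The log2 change was -1.39 at 6 h (SE 0.23, adjusted p = 4.91e-04), -1.46 at 24 h (SE 0.23, adjusted p = 1.73e-04) and -4.34 at 72 h (SE 0.27, adjusted p = 1.79e-09), a 20.3-fold difference.

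Tef (ENSMUSG00000022389, chromosome 15, 81802421 to 81826863) is expressed more evenly across the day than Dbp in many tissues. Sham libraries held 249.7, 265 and 245 CPM, 10 min libraries 108, 167 and 153 CPM, and 1 h libraries 213, 253 and 234 CPM. As with Hlf, the 10 min libraries were all below sham and the 1 h libraries overlapped it. At 6 h Tef was at 129.7, 189.5 and 150.0 CPM, at 24 h at 157, 166 and 109 CPM, and at 72 h at 30.2, 27.3 and 33.3 CPM. The change was -0.69 at 6 h (SE 0.17, adjusted p = 0.0053), -0.82 at 24 h (SE 0.17, adjusted p = 9.59e-04) and -3.06 at 72 h (SE 0.18, adjusted p = 2.16e-10), an 8.37-fold difference. Tef overlaps an antisense gene, Gm17597, with the same limit on strand.

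**Figure D1:**
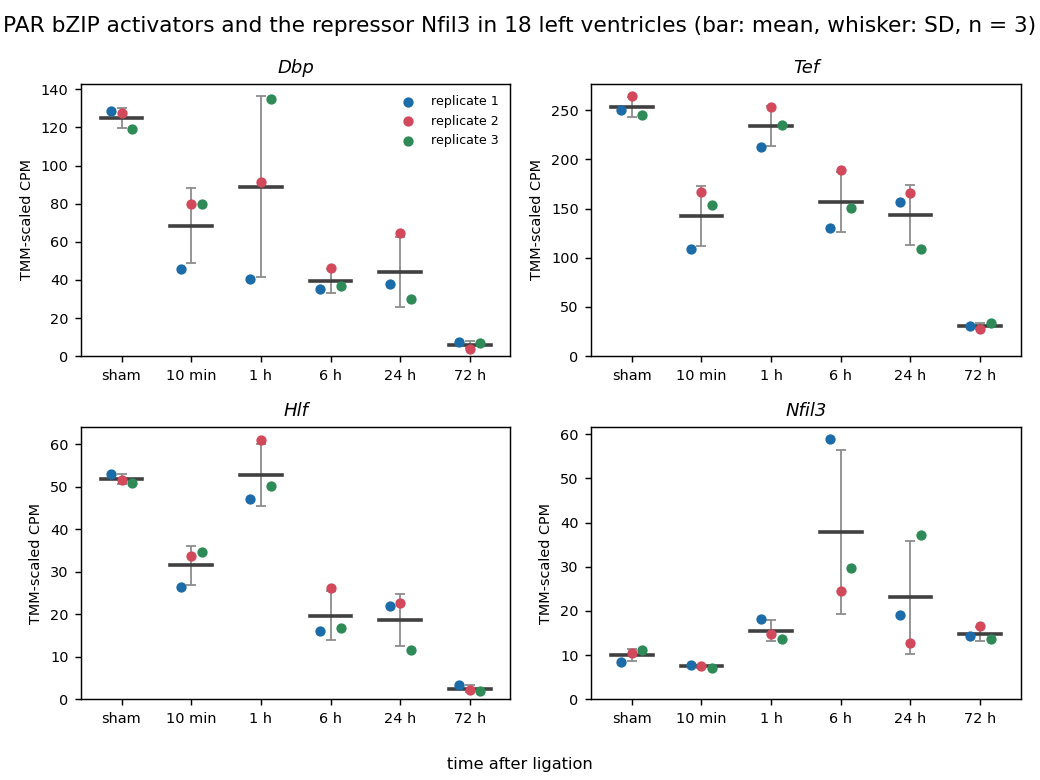
TMM-scaled CPM (vertical axes, linear, from 0) of Dbp, Tef, Hlf and Nfil3 in each of 18 libraries by group, with points for single mice, bars for means and whiskers for SD (n = 3). The 72 h libraries of Dbp (3.75 to 7.26 CPM), Tef and Hlf lie below all other libraries, while Nfil3 is highest in replicate 1 at 6 h (59.0 CPM).

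Steps between later times use neither the sham nor the 10 min libraries. From 1 h to 6 h all 3 fell, with log2 changes of -1.42 for Hlf (SE 0.24, adjusted p = 5.76e-04), -0.58 for Tef (SE 0.17, adjusted p = 0.0186) and -1.17 for Dbp (SE 0.40, adjusted p = 0.0455), where 10.0% of all genes were called lower. The Dbp call is weak: its 1 h and 6 h libraries overlapped, and leaving out any library of both groups other than replicate 1 at 1 h ended it, with adjusted p from 0.0627 to 0.211. The Tef call was lost without replicate 2 at 1 h (adjusted p = 0.0737), replicate 1 at 6 h (0.0987) or replicate 3 at 6 h (0.0568). From 6 h to 24 h, where 13.7% of all genes were called lower and 14.2% higher, 0 of the 3 activators were called, with 95% intervals of -0.68 to 1.01 for Dbp, -0.48 to 0.23 for Tef and -0.57 to 0.43 for Hlf. From 24 h to 72 h all 3 fell, with log2 changes of -2.90 for Dbp (adjusted p = 7.99e-05), -2.25 for Tef (adjusted p = 1.69e-08) and -2.88 for Hlf (adjusted p = 3.27e-07), where 26.1% of all genes were called lower.

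The ratio of counts of 2 genes in a library does not depend on how libraries are scaled. The log2 ratio of Hlf to Tef was -2.29 ± 0.0651 in sham and -2.15 ± 0.0889 at 1 h. It was -3.01 ± 0.157 at 6 h, -2.98 ± 0.217 at 24 h and -3.60 ± 0.435 at 72 h. The 9 libraries from 6 h on, at -4.03 to -2.84, did not overlap the 9 earlier ones, at -2.36 to -2.04, so the activators did not fall in proportion. The log2 ratio of Dbp to Tef was -1.05 to -0.96 in sham and -2.41 ± 0.413 at 72 h, and its 1 h libraries were spread from -2.40 to -0.80.

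Nfil3 (ENSMUSG00000056749, chromosome 13, 52967209 to 52981073), the repressor of the D-box, moved opposite to the activators at 6 h and 24 h. Its level was 8.39, 10.5 and 11.1 CPM in sham, 7.85, 7.52 and 7.09 CPM at 10 min and 18.2, 14.9 and 13.6 CPM at 1 h. All 10 min libraries lay below sham and all 1 h libraries above it, although the 1 h change of 0.64 (SE 0.36, adjusted p = 0.934) was not called. Nfil3 then read 59.0, 24.5 and 29.8 CPM at 6 h, 19.1, 12.8 and 37.3 CPM at 24 h, and 14.3, 16.7 and 13.6 CPM at 72 h. It rose by 1.92 at 6 h (SE 0.35, adjusted p = 0.00123), a 3.77-fold difference, and by 1.20 at 24 h (SE 0.35, adjusted p = 0.0130), and the 72 h value of 0.57 (SE 0.35, adjusted p = 0.164) was not called. That 72 h value was called in 4 alternatives: library size only, only the 6 libraries compared and both limma fits on FPKM, with a log2 change up to 1.16. From 1 h to 6 h Nfil3 rose by 1.27 (adjusted p = 0.0155).

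The highest Nfil3 level at each of 6 h and 24 h was in the library with the most neutrophil marker RNA. At 6 h Nfil3 was at 59.0, 24.5 and 29.8 CPM beside neutrophil marker sums of 733, 260 and 96.6 CPM in replicates 1 to 3. Between replicates 2 and 3 at 6 h the order was reversed, with more Nfil3 beside less marker RNA in replicate 3. At 24 h Nfil3 was at 19.1, 12.8 and 37.3 CPM beside sums of 152, 35.1 and 652 CPM. The same high libraries also had the lowest cardiomyocyte sums of their groups (34893 and 17031 CPM) and the highest endothelial sums (1498 and 930 CPM). Replicate 1 at 6 h also held the 151 CPM of atrial markers. The 5 neutrophil markers were all called higher at both times, and their part in the Nfil3 change was not tested. Without both of the high libraries, an alternative chosen after seeing the data, Nfil3 was called at 1.44 at 6 h (adjusted p = 1.82e-06) and 0.67 at 24 h (adjusted p = 0.00384). The libraries that remained still held neutrophil marker sums of 35.1 to 260 CPM, against 2.31 to 3.58 CPM in sham. This alternative therefore cannot separate Nfil3 from the neutrophil markers. The 24 h call was lost without replicate 3 at 24 h alone (0.67, adjusted p = 0.102) or without sham replicate 1 (1.09, adjusted p = 0.0529). The 1 h to 6 h call was lost without replicate 1 at 6 h (0.80, adjusted p = 0.0922), replicate 2 at 1 h (adjusted p = 0.0560) or replicate 3 at 1 h (adjusted p = 0.0607).

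**Figure D2:**
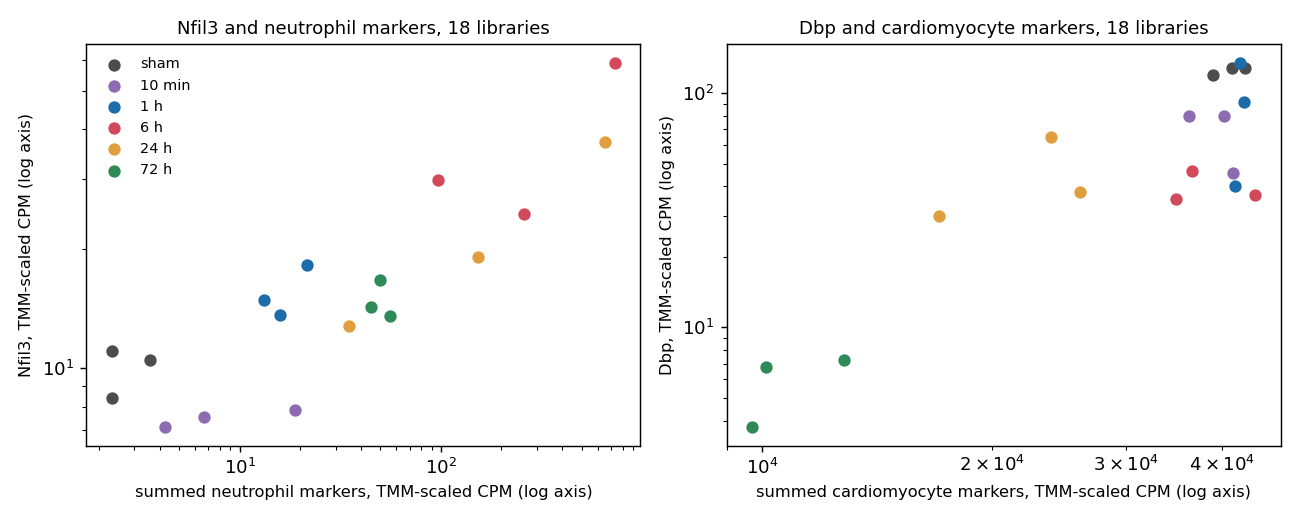
Left, Nfil3 against the summed level of 5 neutrophil markers, and right, Dbp against the summed level of 6 cardiomyocyte markers, in TMM-scaled CPM on log axes, with a point for each of 18 libraries coloured by group. The red and orange points farthest to the right in the left panel are replicate 1 at 6 h (733 CPM of markers, 59.0 CPM of Nfil3) and replicate 3 at 24 h (652 and 37.3 CPM). In the right panel the 72 h libraries are lowest on both axes. The 6 h libraries have low Dbp at marker sums of 34893, 36616 and 44263 CPM, against 38907 to 42945 CPM in sham.

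The log2 ratio of Dbp to Nfil3 counts went from 3.66 ± 0.257 in sham to 2.36 ± 1.10 at 1 h, 0.157 ± 0.838 at 6 h, 1.00 ± 1.33 at 24 h and -1.38 ± 0.674 at 72 h. Sham libraries spanned 3.43 to 3.94, and every library from 1 h on was below them. Counts of Nfil3 exceeded those of Dbp in replicate 1 at 6 h (-0.74), replicate 3 at 24 h (-0.32) and all 3 libraries at 72 h (-2.16 to -0.98). The 1 h libraries again differed most in replicate 1, at 1.15 against 2.62 and 3.31. Which cells of the tissue each gene was read from was not determined.

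**Figure D3:**
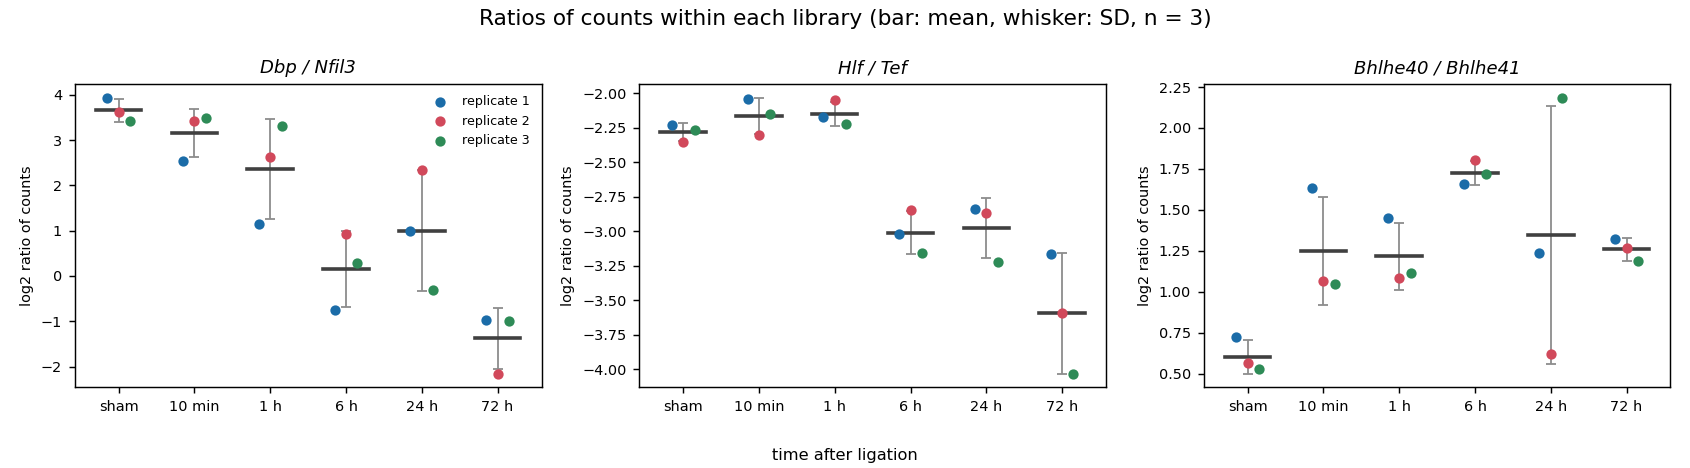
Log2 ratio of deposited counts within each library (vertical axes, 3 panels with their own scales) for Dbp to Nfil3, Hlf to Tef and Bhlhe40 to Bhlhe41, with points for mice, bars for means and whiskers for SD (n = 3). Dbp to Nfil3 goes from 3.66 in sham to -1.38 at 72 h, Hlf to Tef separates the 9 libraries from 6 h on from the 9 earlier ones, and Bhlhe40 to Bhlhe41 is lowest in sham.

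Ciart (ENSMUSG00000038550, chromosome 3, 95878503 to 95882251), which represses CLOCK and BMAL1, was called lower at 24 h and 72 h. It read 13.3, 10.6 and 13.3 CPM in sham, 3.61, 7.47 and 5.31 CPM at 10 min and 6.62, 13.6 and 14.9 CPM at 1 h. Replicate 1 was the low library of the 1 h group, as for Dbp. At 6 h it was at 9.71, 10.2 and 6.82 CPM, at 24 h at 4.01, 4.74 and 4.54 CPM, and at 72 h at 1.36, 0.487 and 1.11 CPM. All 6 h libraries lay below sham, but the change of -0.48 (SE 0.30, adjusted p = 0.255) was not called. Ciart fell, with changes of -1.49 at 24 h (SE 0.31, adjusted p = 0.00124), -3.65 at 72 h (SE 0.36, adjusted p = 1.14e-07), a 12.6-fold difference, and -2.17 from 24 h to 72 h (adjusted p = 9.09e-05). The change of -1.01 from 6 h to 24 h (adjusted p = 0.0246) was lost when any of 5 of the 6 libraries was left out, all but replicate 3 at 6 h, with adjusted p from 0.0523 to 0.0806. Ciart overlaps the antisense gene C920021L13Rik.

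Bhlhe40 (ENSMUSG00000030103, chromosome 6, 108660629 to 108666925), a repressor that also responds to hypoxia and cytokines in many cells, was the other member that rose at 6 h. Sham libraries held 54.0, 47.5 and 40.1 CPM, 10 min libraries 53.8, 56.7 and 59.4 CPM, and 1 h libraries 62.6, 60.3 and 70.6 CPM. The 10 min range overlapped that of sham, and the 1 h libraries lay above it. Later values were 170.0, 93.1 and 77.9 CPM at 6 h, 58.4, 54.6 and 120.3 CPM at 24 h, and 55.3, 53.4 and 47.4 CPM at 72 h. The increase at 6 h was 1.27 (SE 0.29, adjusted p = 0.00515), a 2.41-fold difference. At 24 h the value was 0.72 (SE 0.29, adjusted p = 0.0574), and it was called in 7 of the alternatives tried. As for Nfil3, the high libraries were those with the most neutrophil markers, replicate 1 at 6 h and replicate 3 at 24 h. Without both, the 6 h change was 0.86 (adjusted p = 1.16e-05) and the 24 h change 0.26 (adjusted p = 0.0828), with the same limit as for Nfil3. Bhlhe40 overlaps the antisense gene 0610040F04Rik.

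Its paralogue Bhlhe41 (ENSMUSG00000030256, chromosome 6, 145858243 to 145865558) was called at 0 of the times tested. Group means were 30.9 ± 2.71 CPM in sham, 28.0 ± 4.87 at 1 h, 34.7 ± 16.6 at 6 h, 28.9 ± 5.72 at 24 h and 21.7 ± 0.741 at 72 h. The wide spread at 6 h came from replicate 1, at 53.9 CPM against 26.6 and 23.7 CPM. At 72 h all 3 libraries, at 20.8 to 22.1 CPM, lay below sham, and the change of -0.51 (95% interval -1.07 to 0.04, adjusted p = 0.0963) did not pass the test. That separation depended on TMM scaling: in CPM of the library total, Bhlhe41 was at 29.8 to 30.7 at 72 h against 26.6 to 29.9 in sham, and the sign changed in 3 alternatives (to at most 0.08). With only the 6 libraries compared it was called lower (adjusted p = 1.26e-04). Bhlhe41 overlaps Gm43909 on the opposite strand, with the same limit as for Dbp. The log2 ratio of Bhlhe40 to Bhlhe41 was 0.605 ± 0.104 in sham, 1.25 ± 0.330 at 10 min, 1.22 ± 0.204 at 1 h, 1.73 ± 0.0740 at 6 h, 1.35 ± 0.787 at 24 h and 1.26 ± 0.0698 at 72 h. Sham libraries reached 0.723, and the only later library below that was replicate 2 at 24 h, at 0.624.

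Cipc (ENSMUSG00000034157, chromosome 12, 86947043 to 86965362), an inhibitor of CLOCK, was low at 10 min, overlapped sham from 1 h to 24 h, and was lowest at 72 h. It was at 58.3 ± 3.20 CPM in sham, 41.2 ± 1.60 at 10 min, 56.7 ± 4.77 at 1 h, 57.3 ± 2.98 at 6 h, 57.7 ± 4.73 at 24 h and 27.5 ± 0.982 at 72 h. The 10 min libraries (39.4 to 42.5 CPM) and the 72 h libraries (26.9 to 28.7 CPM) each lay below all libraries of the other 4 groups, where the lowest was 51.2 CPM. Intervals of the change from sham were -0.22 to 0.14 at 1 h, -0.20 to 0.15 at 6 h and -0.19 to 0.16 at 24 h. At 72 h Cipc fell, with a change of -1.08 against sham (SE 0.09, adjusted p = 5.39e-09) and -1.07 against 24 h (adjusted p = 1.75e-08). It was also the steadiest member: its within-group SD of 0.0881 on the log2 scale was larger than that of 5.48% of genes tested, while the SD of Dbp, 0.525, was larger than that of 87.9%.

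Slc41a3 (ENSMUSG00000030089, chromosome 6, 90604725 to 90646412), the transporter gene, was the single member above sham at 10 min with no overlap. It read 22.8, 14.5 and 15.7 CPM in sham, 74.9, 46.3 and 59.8 CPM at 10 min, and 22.9, 17.2 and 21.2 CPM at 1 h. The 10 min libraries exceeded every other library of the series. It was at 28.3, 21.7 and 25.5 CPM at 6 h, at 24.3, 16.6 and 11.9 CPM at 24 h, and at 36.9, 28.5 and 29.9 CPM at 72 h. Slc41a3 was the member called higher at 72 h, by 0.85 against sham (SE 0.24, adjusted p = 0.00514) and by 0.85 against 24 h (SE 0.24, adjusted p = 0.00702). Its 72 h libraries did not overlap those of either group. The sham libraries took part in choosing Slc41a3, while the contrast with 24 h does not compare them.

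Lonrf1 (ENSMUSG00000039633, chromosome 8, 36216064 to 36249516) was, like Cipc, low at 10 min and at 72 h. It was at 17.4 ± 1.86 CPM in sham, 8.06 ± 2.87 at 10 min, 17.4 ± 0.892 at 1 h, 14.9 ± 1.31 at 24 h and 7.17 ± 1.08 at 72 h. At 6 h its libraries held 14.7, 19.5 and 19.7 CPM. The 10 min range (4.98 to 10.7 CPM) and the 72 h range (5.93 to 7.92 CPM) overlapped each other and lay below every other library. At 72 h the change was -1.28 against sham (SE 0.19, adjusted p = 1.17e-05) and -1.06 against 24 h (SE 0.19, adjusted p = 1.67e-04), and Lonrf1 was not called at the other times tested.

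**Figure D4:**
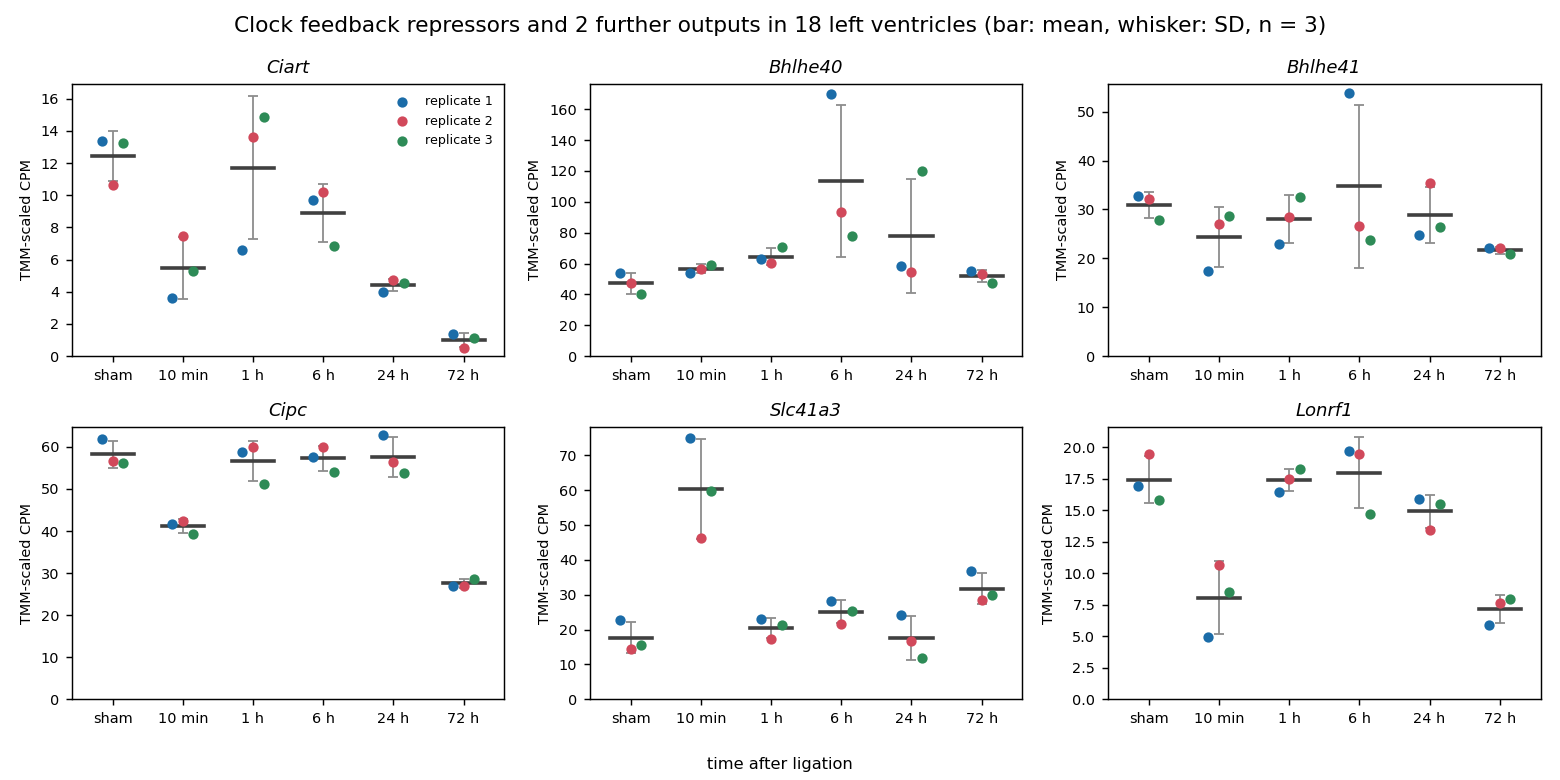
TMM-scaled CPM (vertical axes, linear, from 0) of Ciart, Bhlhe40, Bhlhe41, Cipc, Slc41a3 and Lonrf1 in 18 libraries by group, with points for mice, bars for means and whiskers for SD (n = 3). Cipc and Lonrf1 are low at 10 min and at 72 h, Slc41a3 is highest at 10 min (46.3 to 74.9 CPM), and replicate 1 at 6 h stands above its group for Bhlhe40 (170.0 CPM) and Bhlhe41 (53.9 CPM).

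Counted over the 10 members, 10 min libraries were all below sham for 7 members and all above for 1, with Bhlhe40 and Bhlhe41 overlapping. Over all genes tested 9.07% lay wholly below sham and 11.0% wholly above at 10 min, and these counts are a description because that contrast took part in choosing members. At 1 h 0 members were called by edgeR, 0 had an unadjusted p under 0.05 and DESeq2 called 0, beside 0.294% of all genes called. Nfil3 and Bhlhe40 were called when only the 6 sham and 1 h libraries were fitted. At 6 h 2 members were called higher and 3 lower, where 16.3% and 12.2% of all genes were called in those directions. The 24 h counts were 1 higher and 4 lower, against 23.7% and 20.2% of all genes. At 72 h 1 member was higher and 6 were lower, against 34.2% and 32.2%, so calls at that time were common in the whole table. The members' median log2 change was -0.02 at 1 h, 0.01 at 6 h, -0.16 at 24 h and -1.18 at 72 h, where the median of all genes was 0.03 at 72 h. The contrasts with sham share the 3 sham libraries and are not independent of each other.

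Between later times the counts were 1 higher and 3 lower from 1 h to 6 h (all genes 14.5% and 10.0%). They were 0 higher and 1 lower from 6 h to 24 h (14.2% and 13.7%), and 1 higher and 6 lower from 24 h to 72 h (24.4% and 26.1%). The same 6 members, Dbp, Tef, Hlf, Ciart, Cipc and Lonrf1, were lower at 72 h against sham and against 24 h, and Slc41a3 was higher in both. The size of the 72 h changes depended on scaling and test. Library size scaling moved the median of all genes at 72 h to 0.61, and over all alternatives the change from sham ran from -4.57 to -3.43 for Dbp, -3.14 to -2.28 for Tef, -4.59 to -2.43 for Hlf and -3.95 to -1.93 for Ciart. It ran from -1.11 to -0.45 for Cipc, -1.36 to -0.53 for Lonrf1 and 0.72 to 1.44 for Slc41a3, and these 7 calls held in every alternative. From 24 h to 72 h the ranges were -3.13 to -2.11 for Dbp, -2.42 to -1.66 for Tef, -3.13 to -1.35 for Hlf and -2.47 to -0.95 for Ciart.

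**Figure D5:**
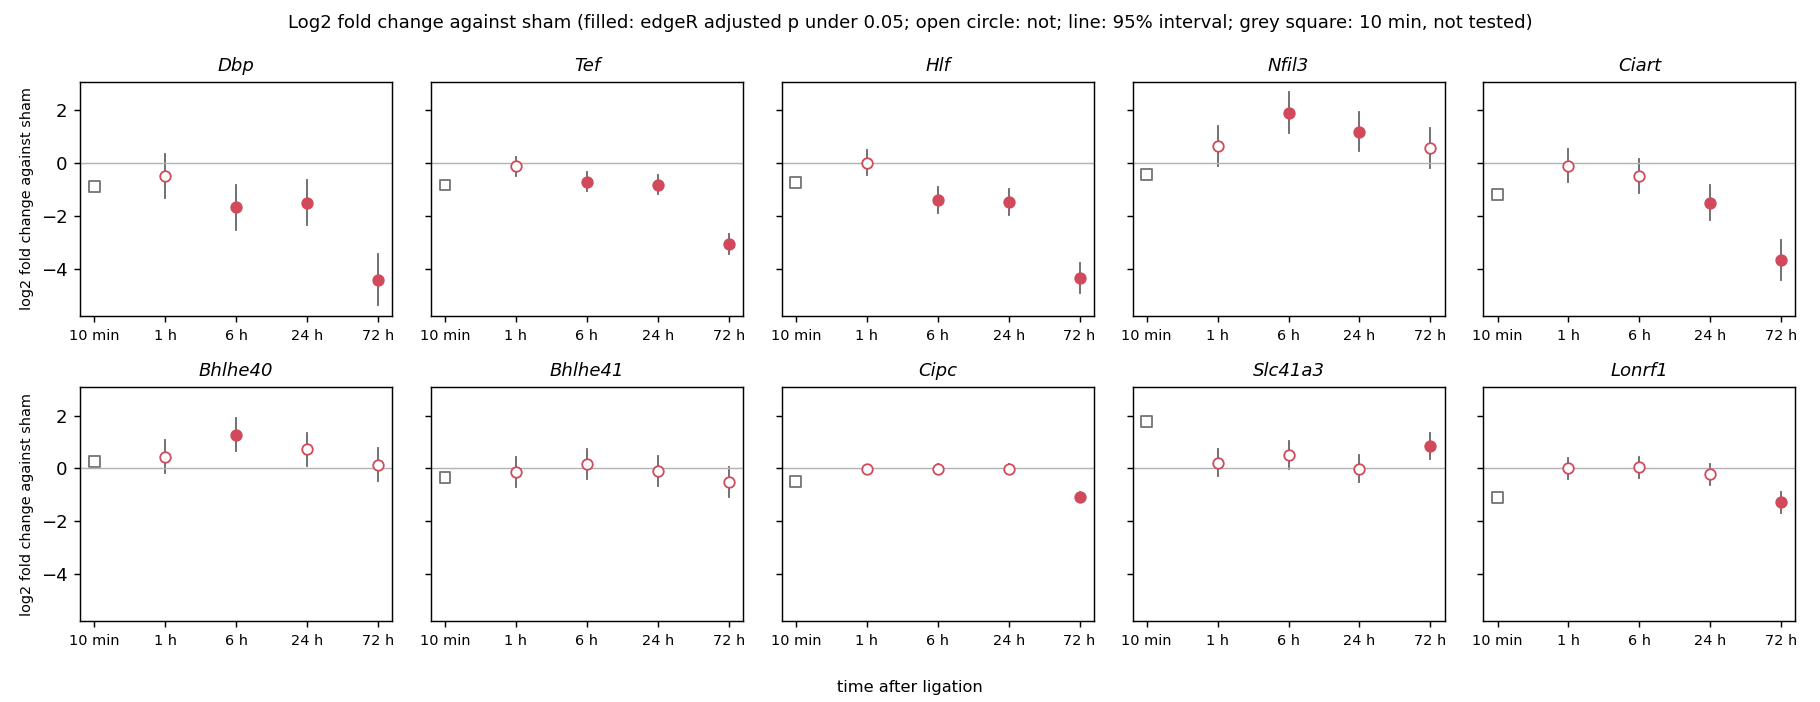
Fitted log2 fold change against sham (vertical axis, shared by all panels) for each member at 10 min and at 1, 6, 24 and 72 h, with filled circles for edgeR adjusted p under 0.05, open circles for values not called, lines for 95% intervals and open grey squares for the untested 10 min values. Dbp, Tef, Hlf and Ciart reach their lowest values at 72 h (-4.40, -3.06, -4.34 and -3.65), while Nfil3 and Bhlhe40 peak at 6 h (1.92 and 1.27).

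The 72 h decreases came with a lower level of cardiomyocyte markers, all 6 of which were called lower at that time with a median log2 change of -1.83. Each member was then set against the summed cardiomyocyte markers of the same library, a measure added after seeing the data. A gene with an unchanged level reads higher on this measure where the marker sum is lower. Shares over all genes were not computed for it. On this measure the 72 h level was below sham for Dbp (log2 difference -2.53), Hlf (-2.45), Ciart (-1.85) and Tef (-1.14). For these 4 genes the 72 h libraries did not overlap sham. On the same measure Cipc was higher at 72 h by 0.85, Slc41a3 by 2.79, Nfil3 by 2.50, Bhlhe40 by 2.07 and Bhlhe41 by 1.42, and Lonrf1 overlapped sham. At 24 h Dbp (-0.68) and Hlf (-0.63) were below sham without overlap, and Tef (0.06) and Ciart (-0.58) overlapped it. The 6 other members were higher without overlap at 24 h, from 0.68 for Lonrf1 to 1.98 for Nfil3. At 6 h the marker sums were 34893, 36616 and 44263 CPM in replicates 1 to 3, against 38907 to 42945 CPM in sham. Of the 6 markers, 1 was called lower at that time. Dbp (-1.58), Hlf (-1.34) and Tef (-0.62) were lower without overlap at 6 h. Nfil3 (1.92), Bhlhe40 (1.29) and Slc41a3 (0.63) were higher without overlap at 6 h, and 4 members overlapped sham. Mitochondrially encoded genes took 8.41 to 10.5% of counts at 72 h and 23.8 to 26.1% in sham. The part of cell makeup and of this share in the 72 h levels was not tested.

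Compared per kilobase of gene length, Dbp was the most abundant member in sham, at 41.8 ± 1.72 CPM per kb, followed by Tef at 32.2 ± 1.32 and Cipc at 12.0 ± 0.657. Bhlhe40 at 10.0 ± 1.48 came next, and then Hlf at 7.77 ± 0.167. The SD ranges of Cipc and Bhlhe40 overlapped, as did those of Hlf and the next gene, Slc41a3. Slc41a3, Ciart, Nfil3, Bhlhe41 and Lonrf1 had means of 6.07, 5.49, 4.92, 4.59 and 4.43 CPM per kb, and neighbours in that order lay within each other's spread. At 6 h Bhlhe40 was first at 24.2 ± 10.5 CPM per kb, followed by Tef at 19.9 ± 3.86 and Nfil3 at 18.7 ± 9.16, whose spreads overlapped. At 72 h Bhlhe40 (11.1 ± 0.875) and Slc41a3 (10.9 ± 1.54) led with levels within each other's spread, Nfil3 came next at 7.33 ± 0.808, Dbp was at 1.98 ± 0.636, and Ciart at 0.436 ± 0.198 and Hlf at 0.382 ± 0.108 were lowest, within each other's spread.

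Mice of the same group also differed from each other in a shared way. Taking each library's deviation from its group mean on the log2 scale, Tef fell on the same side as Dbp in 16 of 18 libraries, and Hlf, Ciart and Bhlhe41 each in 14. Nfil3 was on the same side as Dbp, Tef and Hlf in 4 of 18 each. Over all genes tested the median was 9 libraries for each member, with a 5th to 95th percentile of 5 to 13 for Dbp and Hlf, 4 to 13 for Tef and 4 to 14 for Nfil3, so 4 lies within the ranges of Tef and Nfil3. Bhlhe40 and Bhlhe41 shared a side in 15 of 18. These are descriptions over libraries that share a group mean, and Cipc shared a side with Dbp in 9. The 1 h group showed the widest such deviations for Dbp, at -0.97, 0.20 and 0.77 for replicates 1 to 3, with Ciart at -0.73, 0.30 and 0.43, while Tef stayed within -0.13 to 0.12.

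Non-member genes averaging 50 counts or more numbered 11663, and those whose centred log2 level over 18 libraries lay nearest to that of Dbp were Per3, a period gene (root mean square difference 0.49), Tcap, the titin cap protein of the sarcomere (0.59), and Pde4c, a cyclic AMP phosphodiesterase (0.61). The root mean square of Dbp around its own mean was 1.47. Per3 went from 50.1 ± 2.97 CPM in sham to 19.8 ± 5.17 at 10 min, 42.3 ± 4.09 at 1 h, 17.2 ± 5.38 at 6 h, 19.2 ± 8.10 at 24 h and 3.84 ± 0.894 at 72 h. Among members, Hlf (0.42), Ciart (0.57) and Tef (0.58) were nearest to Dbp. Closest to Nfil3 were Pim1, a kinase induced by cytokines (0.21), Ell2, an elongation factor (0.28), and Tiparp, an ADP-ribosyltransferase (0.31), against 0.80 for Nfil3 itself. Pim1 was at 26.9 ± 2.65 CPM in sham, 90.5 ± 30.7 at 6 h and 38.5 ± 3.84 at 72 h. Closest to Bhlhe40 were Trib1 (0.22), Klf6 (0.22) and Sema4c (0.23), against 0.49 for Bhlhe40 itself. For Slc41a3 the nearest genes, Rflnb (0.49), Rnf144a (0.51) and Itga6 (0.51), were poor likenesses, since Slc41a3 varied by only 0.68 around its own mean.

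The other genes of the clock were read from lists that, like the members, were drawn up with earlier results known. Of 12 core loop genes, 0 were called at 1 h, 4 higher and 2 lower at 6 h, 2 higher and 6 lower at 24 h, and 3 higher and 9 lower at 72 h. Over all genes tested the shares called higher and lower were 16.3% and 12.2% at 6 h, 23.7% and 20.2% at 24 h, and 34.2% and 32.2% at 72 h. The core loop median was -1.86 at 72 h, where that of all genes was 0.03. The 3 that rose at 72 h, Arntl, Clock and Npas2, encode the activating arm. Arntl was at 1.16 ± 0.223 CPM in sham, 9.94 ± 2.85 at 10 min, 1.67 ± 0.872 at 1 h, 5.65 ± 1.73 at 6 h, 3.53 ± 1.89 at 24 h and 20.0 to 24.1 at 72 h. Its 72 h change was 4.27 (SE 0.41, adjusted p = 1.60e-07), opposite in sign to that of Dbp. The repressors Cry2 (-2.53, adjusted p = 4.82e-11), Nr1d2 (-2.27, adjusted p = 4.66e-10) and Per2 (-4.20, adjusted p = 3.82e-09) had the smallest adjusted p at 72 h. Per2 stayed at 44.6 ± 6.50 CPM at 6 h against 41.0 ± 5.72 in sham, a time when Dbp was at 31.5% of its sham level.

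Of 10 other clock outputs and D-box targets, 4 rose and 0 fell at 6 h, 2 rose and 2 fell at 24 h, and 1 rose and 6 fell at 72 h. The shares of all genes called higher and lower were 16.3% and 12.2% at 6 h, 23.7% and 20.2% at 24 h, near the list's own share at 24 h, and 34.2% and 32.2% at 72 h. Usp2, a deubiquitinase with a D-box and E-box driven rhythm, fell at 72 h (log2 change -2.68, adjusted p = 3.88e-09), as did Alas1, the first enzyme of haem synthesis (-1.47, adjusted p = 8.95e-07), and Nampt, the rate-limiting enzyme of NAD salvage (-1.27, adjusted p = 1.37e-06). Of 10 clock-linked heart genes, 3 rose and 0 fell at 6 h, 2 rose and 4 fell at 24 h, and 0 rose and 9 fell at 72 h, beside the same shares of all genes. Dgat2, an enzyme of triglyceride synthesis, fell at 72 h (-2.87, adjusted p = 8.09e-10), as did Tcap (-2.91, adjusted p = 4.29e-09) and Bdh1, a ketone body enzyme (-1.45, adjusted p = 3.07e-08). Their medians at 72 h were -0.93 for the outputs and -1.54 for the heart genes, against 0.03 for all genes, beside the lower cardiomyocyte markers given above.

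Glucocorticoids reset peripheral clocks, so 8 genes that respond to them were read beside the members. Per1 is on both this list and the core loop list. At 1 h 3 were called higher, at 6 h 6 were higher and 0 lower, at 24 h 3 were higher and 1 lower, and at 72 h 1 was higher and 4 lower. Of all genes, 0.294% were called at 1 h, 16.3% were higher and 12.2% lower at 6 h, 23.7% and 20.2% at 24 h, and 34.2% and 32.2% at 72 h. The list's median at 6 h was 1.46, against -0.01 for all genes. Cebpd rose from 20.1 ± 2.43 to 145 ± 47.7 CPM at 6 h (log2 change 2.85, adjusted p = 2.33e-06), Sgk1 from 67.1 ± 0.645 to 163 ± 28.4 CPM (1.28, adjusted p = 1.37e-05) and Fkbp5 from 22.4 ± 4.04 to 214 ± 30.9 CPM (3.26, adjusted p = 3.88e-04). Tsc22d3 and Klf9 differed less, at 101 ± 7.07 CPM in sham and 110 ± 12.2 at 6 h for Tsc22d3, and 131 ± 20.5 and 153 ± 24.5 for Klf9. No hormone was measured, and the part of glucocorticoids in the members' levels was not tested.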

How the data were processed

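RNA was measured in 18 libraries, 6 groups of 3 mice, grouped by the labels. The authors deposited raw read counts per Ensembl gene and FPKM (counts scaled by gene length and library total). Per the submitters' processing notes, HISAT2 2.1.0, cutadapt 1.18, featureCounts and mm10 were used; strand setting is not given in the sources used here. Deposited FPKM gave gene lengths for levels per kilobase and the limma alternative; they equalled GENCODE M21 exon lengths for 91.9% of 30244 genes, the source of the coordinates. At 6 h, FPKM of replicates 2 and 3 followed each other's counts. Symbols matched 30489 of 30583 genes.

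Deposited counts went into edgeR 4.0.16 (R 4.3.3): filterByExpr removed 14272 genes, TMM scaling, a robust quasi-likelihood fit with 1 mean per group over all libraries, two-sided F tests and Benjamini-Hochberg adjustment over 16311 genes (called under 0.05). The steps were tested on simulated data. Libraries held 18.2 to 25.1 M counts; the biological coefficient of variation was 0.149. Cardiomyocyte, neutrophil, macrophage, fibroblast and other marker lists were summed per library.

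Members, gene lists and tests were chosen with earlier results of these data known. All members were described. At the time with most calls, the 3 smallest adjusted p of a list named its genes, and for 4 members the 3 nearest genes were named. The 3 rising core loop genes and Per3's levels were added after seeing values. Alternatives were library size and RLE scaling, no filter or at least 10 counts in every library, a replicate block, only the 6 libraries compared, DESeq2 1.42.0, limma 3.58.1 on log2(FPKM + 1) or log2(FPKM + 0.1), and leaving out each replicate. A planned comparison of protein sequences was not run.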

Additional observations from a re-analysis of the deposited data

Results flagged for a closer look

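Nfil3 was the member whose libraries lay wholly on one side of sham at 10 min and wholly on the other at each later time. At 10 min its 3 libraries (7.09 to 7.85 CPM) were all below sham (8.39 to 11.1 CPM), and at 1, 6, 24 and 72 h all were above it. The log2 change from sham was higher than at 10 min by 1.06 at 1 h, 2.33 at 6 h, 1.61 at 24 h and 0.99 at 72 h. These differences between times were not tested, and all share the sham libraries and the 10 min libraries. The 10 min change itself, -0.42 with a 95% interval of -1.21 to 0.37, is a description. Over all genes tested 9.07% lay wholly below sham at 10 min, and the share with the whole pattern was not computed. The Nfil3 changes at 1 h and 72 h were not called.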

How the results depend on the processing

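The 10 members and 7 tested contrasts gave 70 values under 26 fits. Of 29 calls, 23 held in every alternative run, 6 were lost at least once, and 0 changed sign. The 6 were Dbp at 24 h, Nfil3 at 24 h, Dbp, Tef and Nfil3 from 1 h to 6 h, and Ciart from 6 h to 24 h; Dbp from 1 h to 6 h was lost in 12 alternatives and Ciart in 10. Of 41 values not called, 15 were called at least once and 20 changed sign, none with a log2 change beyond 0.51 in size. The causes were not tested.

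Calls among members from 6 h to 24 h numbered 1, against 0 with no filter, 2 with a replicate block, 2 without replicate 1 at 6 h and replicate 3 at 24 h together, and 0 to 2 with a library left out. At 1 h against sham they numbered 0, and 2 with only the 6 libraries compared. From 1 h to 6 h they numbered 4, and 1 to 4 with a library left out (1 without replicate 2 at 1 h or replicate 1 at 6 h). Over all genes, calls from 6 h to 24 h numbered 4541, against 6880 with library size only and 1024 with only the 6 libraries. At 1 h against sham they numbered 48, against 190 with only the 6 libraries, 93 with DESeq2 and 31 to 39 with a library left out. Leaving out a library gave 2481 to 4084 calls from 1 h to 6 h (4003 with all) and 2926 to 4655 at 6 h against sham (4639 with all), lowest without replicate 1 at 6 h in both. Library size scaling put the all-gene median at 0.61 for 72 h, 0.20 for 24 h and -0.12 for 6 h against sham.

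Over all genes tested, deviations of same-numbered libraries correlated above 0.1 in 4 of 45 pairs (-0.26 to 0.25). Different-numbered libraries were not compared, so this cannot exclude a replicate effect. Slc41a3 lay above its group mean in replicate 1 and below it in replicate 2 in every group. With the replicate block the members called were 6 at 6 h, 5 at 24 h and 7 at 72 h against sham. Slc41a3 was the member gained at 6 h (edgeR adjusted p = 0.0116, against 0.126 without the block). It was also gained from 6 h to 24 h. The 72 h levels of Ciart rest on few reads, at most 1.36 CPM, which limits their precision.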
